A study of Homo sapiens with 4 samples.

Results

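The sites described here are strong distal places in the genome where BRG1 was found both with and without its HSA domain. They are 808 peaks of the 24212 in the iBRG1 list, 3.34% of it, and were chosen by 4 criteria that use measured values. A site needed an iBRG1 peak score of 10 or more, an overlap of at least 1 bp with an i∆HSA peak of score 10 or more, 25% GC or more in hg19, and more than 1 kb to every GENCODE transcript start. Scores, overlap, GC and distance to starts of these 808 sites are therefore descriptions and were not tested.

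CUT&RUN, in which an antibody guides a nuclease to a chromatin protein and the released DNA is sequenced, was done on SW-13 cells, a human adrenocortical carcinoma line without BRG1 or BRM. One stable line was induced to express full-length BRG1 with a V5 tag (iBRG1), and another to express V5-tagged BRG1 from which the HSA domain had been deleted (i∆HSA, named HSA-V5 in the sample titles). Both expressed an introduced gene under a doxycycline-controlled promoter, both were given doxycycline for 24 h, and both were profiled with the same anti-V5 antibody. Each line had been grown out from individual transfected cells, so a difference between constructs and a difference between clones cannot be told apart. There were 2 samples per construct but 1 deposited peak list per construct, so no value below has a replicate error, and each test compares the lists and not the constructs in general. Cells without doxycycline were not analysed here.

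BRG1 is the ATPase that drives the SWI/SNF complex, which slides and evicts nucleosomes, and much of its binding in other cells is at enhancers far from genes' starts. The HSA domain is the surface on which actin-related proteins assemble with the ATPase. AP-1 factors, dimers of FOS and JUN family proteins, bind TGACTCA and are known to work with SWI/SNF at enhancers. TEAD factors, the DNA-binding partners of the coactivators YAP and TAZ, bind GGAATGT and often act beside AP-1.

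The 10 sites that ranked highest in both lists at once show what such a site looks like, and the 200 bp around the midpoint of the overlap of the paired peaks are given for them, hg19 plus strand, from 5′ to 3′. Capitals mark the AP-1 pattern TGACTCA, which reads TGAGTCA on the other strand, and the TEAD pattern GGAATGT or its reverse complement. Of the 10, the following 6 are those that held AP-1 but not TEAD in these 200 bp.
PFKP intron, chr10:3137660-3137859: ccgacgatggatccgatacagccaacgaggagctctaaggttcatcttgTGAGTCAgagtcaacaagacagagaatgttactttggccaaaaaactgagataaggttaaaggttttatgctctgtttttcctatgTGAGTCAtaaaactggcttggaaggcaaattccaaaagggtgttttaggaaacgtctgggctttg
MAGI3 intron, chr1:113999650-113999849: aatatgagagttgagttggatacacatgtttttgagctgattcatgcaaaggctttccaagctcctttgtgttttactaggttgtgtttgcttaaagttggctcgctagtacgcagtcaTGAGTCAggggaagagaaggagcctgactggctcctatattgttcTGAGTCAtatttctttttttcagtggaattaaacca
near ZSWIM2, chr2:187718853-187719052: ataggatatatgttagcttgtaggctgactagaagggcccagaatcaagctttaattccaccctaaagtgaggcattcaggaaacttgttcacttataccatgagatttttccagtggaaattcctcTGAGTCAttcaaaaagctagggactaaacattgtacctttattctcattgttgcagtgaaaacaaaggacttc
OSER1 intron, chr20:42832901-42833100: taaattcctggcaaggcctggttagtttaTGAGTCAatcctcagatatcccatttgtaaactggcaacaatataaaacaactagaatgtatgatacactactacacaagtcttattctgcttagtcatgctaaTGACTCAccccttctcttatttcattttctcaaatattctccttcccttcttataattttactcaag
near ENAH, chr1:225843256-225843455: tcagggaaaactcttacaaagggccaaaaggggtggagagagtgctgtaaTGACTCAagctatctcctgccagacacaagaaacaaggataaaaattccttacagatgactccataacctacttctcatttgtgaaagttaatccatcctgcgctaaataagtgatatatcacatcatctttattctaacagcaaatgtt
MMP20 intron, chr11:102470681-102470880: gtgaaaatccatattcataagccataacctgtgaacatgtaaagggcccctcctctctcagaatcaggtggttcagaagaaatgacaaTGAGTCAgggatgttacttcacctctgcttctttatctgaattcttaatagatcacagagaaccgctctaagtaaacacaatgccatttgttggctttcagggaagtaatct
The sites in PFKP, MAGI3 and OSER1 each held 2 AP-1 patterns in this stretch. A further site of the 10, in an intron of MSRA, held both patterns in its central 200 bp and is not printed.

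The following 2 sites of the 10 ranked as high without either pattern in the central 200 bp and are shown for contrast. The ADGRG6 site held no AP-1 or TEAD pattern anywhere in its overlap of 1348 bp, while the FAM120C site held 1 AP-1 pattern further out.
ADGRG6 intron, chr6:142734252-142734451: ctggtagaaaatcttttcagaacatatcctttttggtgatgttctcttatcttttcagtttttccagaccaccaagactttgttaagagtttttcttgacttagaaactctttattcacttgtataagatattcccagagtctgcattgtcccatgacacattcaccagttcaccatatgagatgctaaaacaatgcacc
FAM120C intron, chrX:54204896-54205095: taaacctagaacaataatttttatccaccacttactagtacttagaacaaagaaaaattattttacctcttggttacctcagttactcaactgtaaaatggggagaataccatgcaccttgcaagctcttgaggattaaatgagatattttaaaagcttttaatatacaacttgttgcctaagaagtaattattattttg
The last of the 10, in CDK6, had no pattern in its central 200 bp and 1 AP-1 and 2 TEAD patterns elsewhere in its overlap.

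Of the 2660 iBRG1 peaks with a score of 10 or more, 2642 met the GC criterion and 2045 of these lay more than 1 kb from every start. Among those 2045 peaks, 808 overlapped a strong i∆HSA peak, 364 overlapped only weaker i∆HSA peaks and 873 overlapped none. The 873 are called iBRG1-only below, and 1264 strong distal i∆HSA peaks that overlapped no iBRG1 peak are called i∆HSA-only. The 808 sites paired with 807 distinct i∆HSA peaks as their highest-scoring partner. At the thresholds, 67 sites had an iBRG1 score of exactly 10 and 43 a partner of exactly 10, while 46 peaks that met every other criterion stood just outside with an iBRG1 score of 9 and 44 with a best partner of 9. The lowest GC of a site was 26.5% and the nearest start was 1025 bp away, against 24.4% and 889 bp for the closest peaks left out. Of the partners, 18 lay within 1 kb of a start and 4 had under 25% GC, since the criteria were applied to the iBRG1 peak.

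The score is the authors' own number for each peak, with no stated scale. Scores of one list set against those of the other are therefore a description only. The minimum of 10 was met by 2660 of 24212 iBRG1 peaks and by 4481 of 25371 i∆HSA peaks. A strong peak thus need not mean the same in both lists. In the iBRG1 list the 808 sites had a median score of 18, from 10 to 100, and in the i∆HSA list a median of 27, from 10 to 306. The i∆HSA score was the larger number at 553 sites and the iBRG1 score at 229, which cannot be read as more binding of either protein because the scale of each list is unknown. Across the 808 sites the Spearman correlation of the paired scores was 0.31, given as a description. Of the 206 sites in the top 25% of iBRG1 scores, 93 (45.1%) were also in the top 25% of i∆HSA scores, and these 93 were 45.6% of the 204 there.

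**Figure D1:**
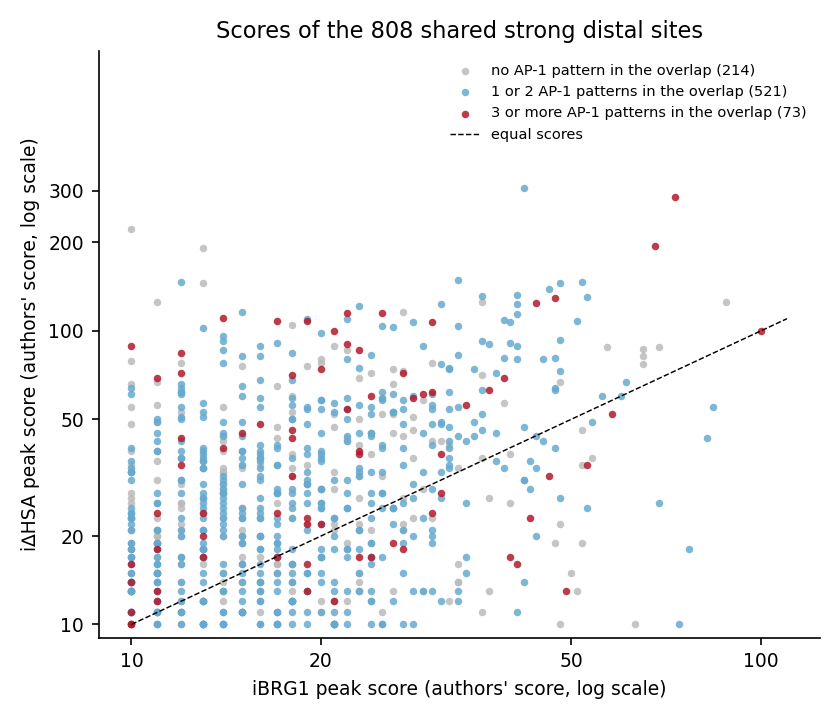
Score of each of the 808 sites in the iBRG1 list (x axis) and of its partner in the i∆HSA list (y axis), both on log scales, coloured by the number of AP-1 patterns in the overlap of the paired peaks. The cloud is broad, with 553 sites above the dashed line of equal scores, and sites with 3 or more AP-1 patterns (73) are spread across it.

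The paired peaks overlapped over most of their length at most sites. Their median widths were 1962 bp (iBRG1) and 2018 bp (i∆HSA), the overlap had a median of 1500.5 bp, and at 800 of 808 sites it took more than 50% of the shorter peak. It took at least 50% of both peaks at 650 of the 808 sites. The midpoints of the paired peaks lay a median of 269 bp apart, so a midpoint marks the centre of such a site only roughly.

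Among the 10 highest iBRG1 scores, 8 sites lay in introns of protein-coding genes. The strongest was in PFKP, the platelet type of phosphofructokinase in glycolysis, with a score of 100 in both lists. ADGRG6, an adhesion G protein-coupled receptor needed for myelination, had 88 and 125 (iBRG1 and i∆HSA, in this order from here on). GALNT1, which starts mucin-type O-glycosylation, had 84 and 55, and ERBB4, a receptor tyrosine kinase, had 82 and 43. DYM, a Golgi-associated protein, had 77 and 18. The site closest to DCBLD2, a transmembrane receptor, lay 20108 bp from the gene in an intron of a non-coding gene and had 74 and 10. MSRA, which repairs oxidised methionine, had 73 and 286, and CDK6, a kinase of the G1 phase of the cell cycle, had 69 and 26. The intergenic site closest to BCAS1 had 69 and 88, and the MAGI3 site, in a gene for a membrane-associated scaffold, had 68 and 194. A top place in the iBRG1 list thus went with i∆HSA scores from the minimum of 10 to the second highest among the sites.

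Of the 10 highest i∆HSA scores, the one in TNRC6A, a scaffold of microRNA silencing, came first with 42 and 306. The sites in MSRA and MAGI3 were also among these 10, as were the site in OSER1, a gene induced by oxidative stress, with 52 and 147, and the site 1886 bp from ENAH, a regulator of actin filament growth, with 48 and 146. The 4 sites that follow had i∆HSA scores near the top and iBRG1 scores near the minimum. TTC7B, part of a phosphatidylinositol kinase complex, had 10 and 223, the site closest to ZSWIM6 had 13 and 191, the site closest to PLK3, a polo-like kinase, had 12 and 147, and FBXO47, an F-box protein, had 13 and 146. The site closest to SLC38A2, an amino acid transporter, was 182976 bp from the gene and had 33 and 149.

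To ask which factors' sequences lie at these places, 18 sequence patterns were looked for, in either orientation, in the 200 bp around each peak midpoint. AP-1 was the pattern that stood out. It was present at 146 of 808 sites, 18.1% (95% Wilson interval 15.6 to 20.9), against 8.84% of all iBRG1 peaks, and at the midpoints of the i∆HSA partners it was present at 145 of 808, 17.9%, against 6.15% of all i∆HSA peaks. In flanking windows 2 kb away from these sites and outside every peak it was present in 39 of 1403, 2.78% (2.04 to 3.78). The odds ratio of sites to flanks was 7.71 (adjusted p = 5.34e-33 over 54 tests, Fisher's exact test). The shares over all peaks cover mostly weaker peaks and include peaks near starts. The median score of all peaks was 2 in the iBRG1 list and 4 in the i∆HSA list.

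The share with AP-1 at iBRG1-only peaks was close to that at the shared sites, and the share at i∆HSA-only peaks was lower. The pattern was present at 158 of 873 iBRG1-only peaks, 18.1% (15.7 to 20.8), with an odds ratio of 0.998 for shared sites (adjusted exact p = 1). It was present at 97 of 1264 i∆HSA-only peaks, 7.67% (6.33 to 9.27), with an odds ratio of 2.63 for the partners of shared sites (adjusted exact p = 8.75e-11). The shared sites had higher scores than the i∆HSA-only peaks, with medians of 27 and 15 in that list. Among peaks with scores of 10 to 19 in all groups, a comparison added after seeing the data, the shares were 14.5% and 7.09% (odds ratio 2.22, adjusted exact p = 0.0111), and in windows of 35 to 50% GC they were 22.9% and 11.9% (odds ratio 2.19, adjusted exact p = 9.16e-05). The shared sites also had higher scores than iBRG1-only peaks, with medians of 18 and 13 in the iBRG1 list. With scores of 10 to 19 the shares were 15.7% at shared sites and 18.4% at iBRG1-only peaks (odds ratio 0.82, adjusted exact p = 0.716). The comparison with iBRG1-only peaks depended on the score minimum. With a minimum of 5 in place of 10 the shared share was 16.9% and the iBRG1-only share 13.8% (odds ratio 1.28, adjusted exact p = 0.0256).

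TEAD followed with smaller differences. It was present at 46 of 808 sites, 5.69% (4.29 to 7.51), against 3.97% of all iBRG1 peaks, and at 39 of the 808 partners, 4.83%, against 2.95% of all i∆HSA peaks. The share in the flanks was 2.49% (odds ratio 2.36, adjusted exact p = 0.00199). At iBRG1-only peaks the share was 7.33%, which did not pass the test (odds ratio 0.76, adjusted exact p = 0.456), and at i∆HSA-only peaks it was 2.53% (odds ratio 1.95, adjusted exact p = 0.0375). The last of these calls was lost under 6 of the alternatives, among them windows of 35 to 50% GC (odds ratio 1.49, adjusted exact p = 0.573), and the call against the flanks under 2.

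None of the 18 patterns passed against iBRG1-only peaks by Fisher's exact test, and 0 had an unadjusted p under 0.05, whereas 6 passed against i∆HSA-only peaks and 3 against the flanks. Beside AP-1 and TEAD, the half-site TTGGCA of NFI factors was present at 12.4% of the partners and 7.44% of i∆HSA-only peaks (odds ratio 1.76, adjusted exact p = 0.00199), and at 14.4% of sites against 9.27% of flanks (odds ratio 1.64, adjusted exact p = 0.00253). The NFI call against the flanks was lost in windows of 35 to 50% GC (odds ratio 1.24, adjusted exact p = 0.573), with a score minimum of 20 (adjusted exact p = 0.0583) and with scores of 10 to 19 (adjusted exact p = 0.259). The pattern TTGCNNAA of C/EBP factors, leucine-zipper proteins like AP-1, was present at 12.9% against 6.33% (odds ratio 2.19, adjusted exact p = 8.05e-06). Lower at shared sites were the E-box CACGTG, read by MYC and USF proteins, with 0.743% against 4.27% (odds ratio 0.168, adjusted exact p = 8.05e-06), and CTCF, the factor at chromatin loop anchors, with 0 of 808 against 12 of 1264 (adjusted exact p = 0.0323). The interval of that 0 reached 0.473%. Over all i∆HSA peaks the shares were 9.24% for NFI, 9.35% for C/EBP, 2.31% for CACGTG and 0.374% for CTCF. The i∆HSA-only shares of NFI and C/EBP lay below these, and those of CACGTG and CTCF above. Over all iBRG1 peaks NFI was present at 10.8%. In windows of 35 to 50% GC the C/EBP call held (adjusted exact p = 0.028). The calls of NFI, CACGTG and CTCF against i∆HSA-only peaks did not (adjusted exact p = 0.14, 0.235 and 0.14). With scores of 10 to 19 in all groups the C/EBP call was lost (odds ratio 1.78, adjusted exact p = 0.122). Those of CACGTG and CTCF were lost there too (adjusted exact p = 0.0951 and 0.6). The CTCF call was also lost with windows of 50 bp, the centre of the overlap and a score minimum of 20. A reciprocal overlap of 50% and list-only peaks that may overlap weak peaks lost it as well. Against i∆HSA-only peaks the NFI call was also lost with windows of 50 bp, a score minimum of 20 and such list-only peaks.

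**Figure D2:**
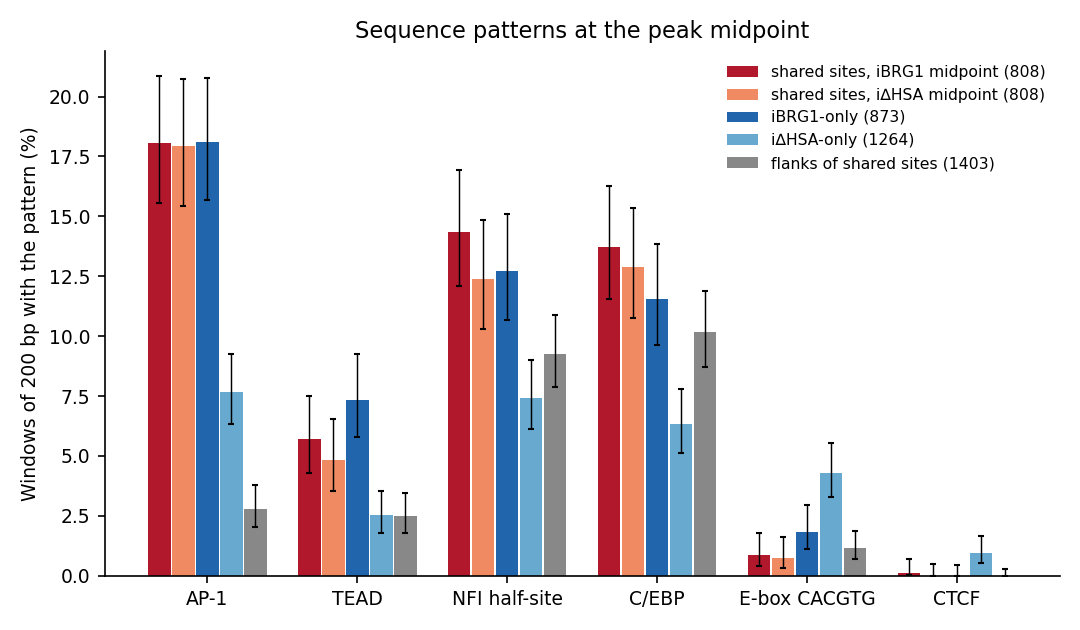
Share of 200 bp windows with each pattern, in percent, at shared sites (centred on the iBRG1 or the i∆HSA peak), iBRG1-only peaks, i∆HSA-only peaks and flanks of the shared sites, with the number of windows in the legend. Error bars, 95% Wilson intervals, cover counting error alone, and AP-1 stands near 18% in 3 of the 5 groups and at 7.67% and 2.78% in the remaining ones.

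AP-1 sequences were concentrated towards the centre of the sites. Within 100 bp of the iBRG1 midpoint there were 1.21 AP-1 starts per kb and 900 to 1000 bp away 0.285, a ratio of 4.24. At the midpoint of the overlap the same figures were 1.39 and 0.26, a ratio of 5.36. At iBRG1-only peaks they were 0.997 and 0.201, and at i∆HSA-only peaks 0.467 and 0.166, for ratios of 4.97 and 2.81. Every copy was counted, including those of the few sites with many copies described below, and no profile was made without them. As a share of windows with AP-1, shared sites (18.07%) and iBRG1-only peaks (18.1%) were alike. For TEAD the figures at the iBRG1 midpoints were 0.328 and 0.198 per kb, a ratio of 1.66.

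**Figure D3:**
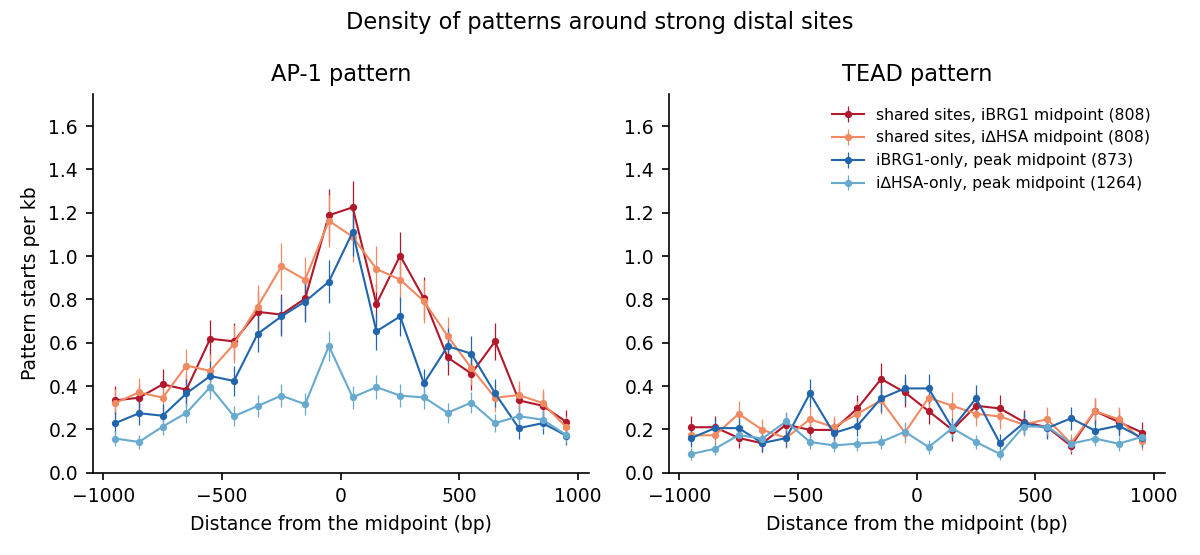
Starts of the AP-1 (left) and TEAD (right) pattern per kb by distance from the midpoint in bp, in bins of 100 bp, at shared sites and at the list-only peaks. Error bars are the square root of the count, in which each copy counts, also where 1 site holds many. Within 100 bp of the midpoint AP-1 reaches 1.21 per kb at shared sites (iBRG1 midpoint) and 0.997 at iBRG1-only peaks.

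Over the whole overlap of the paired peaks, 594 of 808 sites (73.5%) held at least 1 AP-1 pattern, 275 (34%) at least 1 TEAD pattern, 199 both and 138 neither. Such counts were not made for other peaks or flanks, so they cannot be read as particular to the sites. In windows of 500 bp on each side of the midpoint, AP-1 was present at 57.3% of sites, 53.61% of iBRG1-only peaks and 12.95% of flanks. For TEAD these shares were 24.26%, 23.94% and 12.51%. The overlaps held 1013 AP-1 patterns, or 7.71 per 10 kb, where stretches of the same length 10 kb away and outside every peak held 1.55. For TEAD the densities were 2.65 and 1.56 per 10 kb. Where a site had both, the closest pair of starts lay a median of 247 bp apart, and at 8 of the 199 sites within 20 bp. With 1 AP-1 pattern there were 337 sites, with 2 there were 184, and with 3 or more there were 73.

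The 3 sites with most AP-1 patterns were tandem arrays, in which a short unit with the pattern recurs at a near-constant distance. For 2 of them a stretch of 200 bases is given below in the same way as above, hg19 plus strand.
BRD1 array, chr22:49779832-49780031: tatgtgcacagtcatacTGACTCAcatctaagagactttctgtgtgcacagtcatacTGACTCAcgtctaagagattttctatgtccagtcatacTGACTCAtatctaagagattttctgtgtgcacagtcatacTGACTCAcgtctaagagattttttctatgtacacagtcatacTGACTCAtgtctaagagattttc
NID1 array, chr1:236260410-236260609: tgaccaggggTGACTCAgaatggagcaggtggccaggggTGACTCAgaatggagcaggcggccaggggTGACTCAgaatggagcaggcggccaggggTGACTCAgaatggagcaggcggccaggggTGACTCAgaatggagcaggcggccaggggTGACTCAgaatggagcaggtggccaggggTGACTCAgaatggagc
The array closest to BRD1, intergenic and 384519 bp from that gene, held 49 patterns in an overlap of 2229 bp, most often 40 bp apart, and had scores of 30 and 107. The array 31997 bp from NID1, the gene of a basement membrane protein, held 10 patterns in its 306 bp, each 29 bp from the next, with scores of 53 and 35. How reads that align to several copies of such a repeat were treated is not given in the sources used here. In all, 6 sites held 5 or more AP-1 patterns, and the other 802 held 917 patterns, or 7.03 per 10 kb. Over the whole iBRG1 peak, 6 of 808 sites (0.743%) held 5 or more. The counts were 1 of 873 iBRG1-only peaks (0.115%) and 4 of 1264 i∆HSA-only peaks (0.316%, with at most 15 patterns). These counts were not tested, and the peaks of the sites were wider (median 1962 bp against 1752 and 1588 bp). The site 3483 bp from ZNF34, a zinc finger gene, held 8 patterns, an intron of LAMA3, a laminin chain, held 6 patterns spread over 3614 bp, and AHNAK, a large scaffold protein, held 5.

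The scores of sites with and without the patterns near the midpoint are given as a description, because the score chose the sites. In the i∆HSA list the 145 partners with the pattern had a median score of 35 (quartiles 18 and 60) and the 663 without it 26 (15 and 44), a difference of 9. In the iBRG1 list the medians were 20 and 18. For TEAD the medians were 15 with and 18 without the pattern for iBRG1 scores, and for i∆HSA scores they were 28 and 26. With windows of 50 bp on each side the AP-1 difference in the i∆HSA list was 6.5.

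By annotation, 575 of the 808 sites lay in introns (71.2%), 213 between genes and 20 in exons. Among them 501 (62%) were inside a protein-coding gene and 94 only inside a gene of another type. The shares did not pass the test against iBRG1-only peaks, of which 68.4% were intronic (odds ratio 1.14, adjusted exact p = 0.267) and 28.1% intergenic (adjusted exact p = 0.443). Against i∆HSA-only peaks the shared sites were more often intronic, 71.2% against 56.1% (odds ratio 1.93, adjusted p = 1.27e-11 by Fisher's exact test), and less often intergenic, 26% against 42.2% (odds ratio 0.48, adjusted exact p = 2.03e-13). Both calls held under every alternative tried.

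The median distance from a site to the closest start of a protein-coding transcript was 34696 bp, with 137 sites within 10 kb and 165 more than 100 kb away. For iBRG1-only peaks the median was 40150 bp, and for i∆HSA-only peaks it was 34830 bp against 34886.5 bp for the partners. These distances are a description too, since distance to starts was one of the criteria.

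Sites were found on every autosome and on X. Chromosome 2 carried 77 of the 808 (9.53%) and chromosome 1 carried 70 (8.66%). Against iBRG1-only peaks X was the only chromosome that passed the test, with 32 sites (3.96%) against 10 (1.15%), with an odds ratio of 3.56 (adjusted p = 0.00571 over 48 exact tests), and of the i∆HSA-only peaks 4.98% were on X (adjusted exact p = 0.749). With a score minimum of 20 the X shares were 0.749% and 1.27% (odds ratio 0.585, adjusted exact p = 0.999). Against i∆HSA-only peaks, chromosome 19 held 4 sites (0.495%) against 63 peaks (4.98%, odds ratio 0.0948, adjusted exact p = 3.5e-08). Chromosomes 2 (9.53% against 5.93%, adjusted exact p = 0.0297) and 18 (3.09% against 1.11%, adjusted exact p = 0.024) held more, calls that were lost at both other score minimums. The copy number of each chromosome in the 2 lines is not known from these files, and its part in these shares was not tested.

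**Figure D4:**
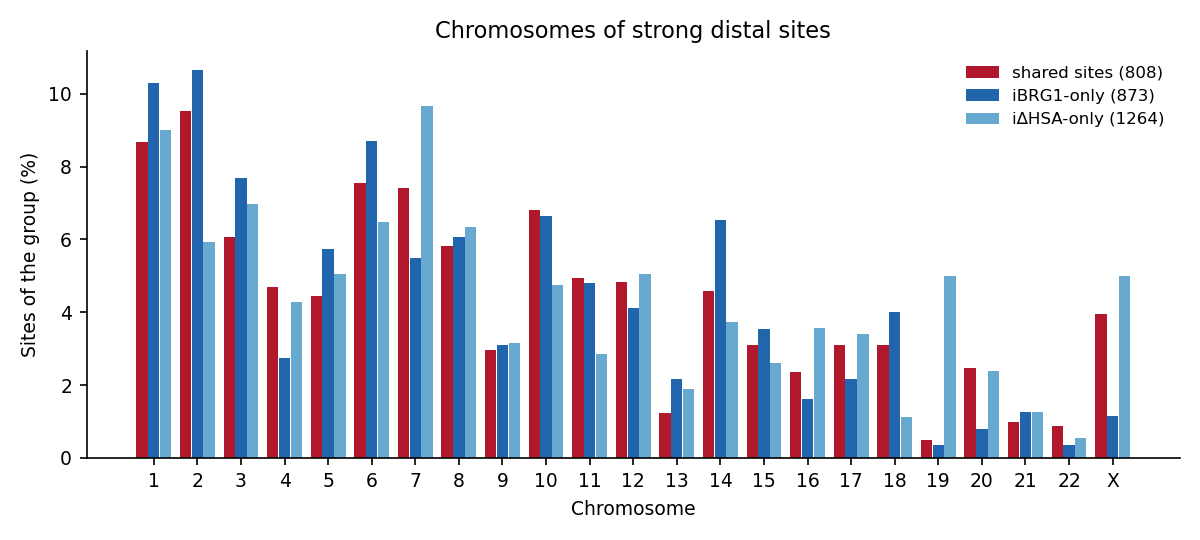
Share of the 808 shared sites, the 873 iBRG1-only and the 1264 i∆HSA-only peaks on each chromosome, in percent of the group. The shared sites and iBRG1-only peaks have few peaks on chromosome 19 (0.495% and 0.344%), and on X the shared sites have 3.96% where iBRG1-only peaks have 1.15%.

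Most sites had no other site within 50 kb, a spacing that was not compared with other peaks or with an even spread. The median distance to the nearest other site was 624439 bp, 114 of 808 had another within 50 kb, and 26 fell into 8 runs of 3 or more sites with gaps of at most 50 kb. A run upstream of DCBLD2 had 4 sites with iBRG1 scores of 27, 48, 49 and 74 and i∆HSA scores of 15, 67, 13 and 10 in the same order, so the strongest site of the run in one list was the weakest in the other. A run at EXOC6, a subunit of the exocyst that tethers secretory vesicles, had 4 sites with iBRG1 scores of only 11 to 12 and i∆HSA scores of 10 to 42. Runs of 3 lay at MYOF, between ME3 and PRSS23, at KANSL1, at VMP1, at USP9X and between DIPK2B and KRBOX4, the last pair on X.

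MYOF, the gene of myoferlin, a membrane repair protein, is one of 5 genes whose coverage the study displays. It held 3 shared sites, all in introns in the 5′ part of the gene, which lies at chr10:95066186-95242091 on the minus strand. The site 10732 bp from the coding start had scores of 15 and 82, the site at 22885 bp had 24 and 52, and the site at 44370 bp had 65 and 87. The i∆HSA scores were within a range of 52 to 87, while the iBRG1 scores rose along the 3 sites from 15 to 65. The middle site held both an AP-1 and a TEAD pattern within 100 bp of its iBRG1 midpoint, the first held 1 AP-1 pattern in its overlap and the third, the strongest, held neither. Within the gene and 20 kb around it there were 8 iBRG1 and 6 i∆HSA peaks, and the only iBRG1 peaks with a score of 10 or more were those of the 3 sites. SRPX2, CRYAB, SPARC and CSF1, the other genes displayed, had 0 shared sites in the gene or within 5 kb.

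**Figure D5:**
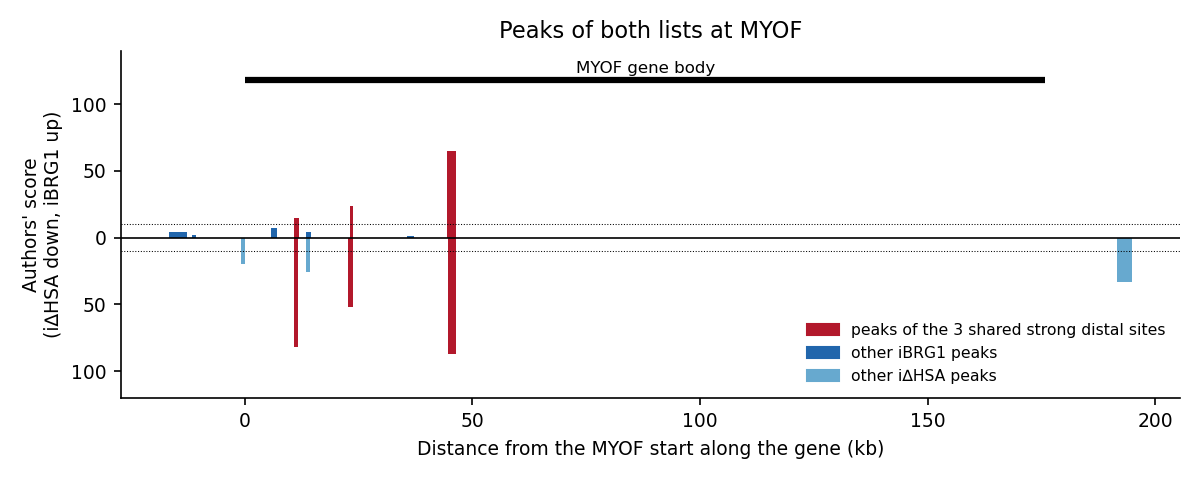
Peaks of both lists at MYOF by distance from the gene's start along the gene in kb, with the authors' score upwards for iBRG1 and downwards for i∆HSA. Red bars are the paired peaks of the 3 shared sites, dotted lines mark a score of 10, and the bar at the top is the gene body, drawn from its start at 0. The iBRG1 scores of the sites are 15, 24 and 65 and their i∆HSA scores 82, 52 and 87.

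Shared sites lay in the bodies of 462 of 20163 protein-coding genes, 2.29%, and within 50 kb of 944, 4.68%. Genes with a site in the body were long, with a median of 173149 bp against 27219 bp for all protein-coding genes, so a long gene had more room for a site. DST, which encodes a linker of the cytoskeleton to adhesion structures, and SEMA3A, a secreted axon guidance factor, held 4 sites each. In DST the iBRG1 scores were 15 to 26 and the i∆HSA scores 19 to 65, and in SEMA3A 12 to 28 and 27 to 103, with an AP-1 pattern in the overlap of all 4 SEMA3A sites. The 9 genes with 3 sites were FGD4, an exchange factor for CDC42, KANSL1, a subunit of a histone acetyltransferase complex, LPP, a focal adhesion protein, MAGI1, a junction scaffold, MRPS28, a mitochondrial ribosomal protein, MYOF, TOX, a nuclear HMG-box protein, VMP1, a membrane protein of autophagy, and ENSG00000276418, which shares its sites with MRPS28 because the annotated genes overlap.

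The genes near the sites were also read against 10 lists of genes that fit SW-13 cells and the factors above, as counts beside the share of all protein-coding genes within 50 kb of a site, 4.68%. The lists of adhesion, matrix and receptor genes held the largest shares, and their genes were longer than the median gene. The counts are not independent, since a site within 50 kb of several genes counts for each. In the matrix list a site counted for neighbouring collagen genes, and another site counted in both the integrin list and the ribosomal list. Of 32 extracellular matrix genes 6 had a site within 50 kb, 18.8% (list median length 84870.5 bp), of 23 receptor tyrosine kinases 4 (17.4%, 120127 bp), of 29 integrin and focal adhesion genes 5 (17.2%, 90892 bp) and of 19 TGF-beta pathway genes 3 (15.8%, 82826 bp). Of the 14 AP-1 family genes 2 had a site (14.3%), of 19 YAP and TEAD genes 2 (10.5%), of 24 actin stress fibre genes 1 (4.17%), of 28 SWI/SNF subunits 1 (3.57%) and of 14 adrenal steroidogenesis genes 1 (7.14%). Of the 28 cytosolic ribosomal protein genes 4 had a site within 50 kb (14.3%), although these genes are short (list median 5321 bp) and 0 had one in the body. Within 10 kb of a site lay 0 of these 28 genes. The site near RPL8 is the one 3483 bp from ZNF34 described above. It had 44 and 124 and was named near RPL8 after its values were seen.

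Within bodies, the matrix genes were COL5A2, a fibrillar collagen chain, with 2 sites, LAMC1, a laminin chain, with 2, and LAMA3 and LOXL2, a collagen crosslinking oxidase, with 1 each. COL5A2 had scores of 15 and 12 at one site and 30 and 42 at the other. LPP had 3 sites, with 11 and 12, 22 and 18, and 34 and 15, and VCL, the focal adhesion protein vinculin, had 2, with 10 and 10, and 33 and 13. PTK2, the focal adhesion kinase, had 1 in the body. Among receptors, ERBB4 had the site with 82 and 43 named above, EGFR, the receptor of epidermal growth factor, a site with 21 and 18, and IGF1R, the receptor of insulin-like growth factor, a site with 13 and 38. The AP-1 family members were ATF3, with 20 and 18, and ATF7, with 16 and 38. TEAD1 itself held a site with 20 and 22 that had 3 AP-1 patterns in its overlap. BMPR1A, a BMP receptor, held 2 sites and SMAD3, which carries TGF-beta signals to the nucleus, held 1 with 12 and 23. ROCK2, a kinase that acts on actomyosin, held 1 with 13 and 34. Of the list genes with a site only outside the body, 2 more were, like RPL8, named after their values were seen. CCN2, a YAP target and matrix protein, had a site within 50 kb with 29 and 33, and ITGAV, an integrin subunit, had 2 with iBRG1 scores of 33 to 36 and i∆HSA scores of 55 to 131.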

How the data were processed

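CUT&RUN with an anti-V5 antibody had been done on 4 SW-13 samples, 2 per construct. Per the study's methods and the submitters' processing notes, the authors trimmed reads with cutadapt, aligned them with Bowtie2 to hg19, discarded duplicate reads (Picard), and ran MACS2 2.2 to find peaks, of which those also seen in negative controls were dropped. The deposited lists, 1 per construct, give each peak's position and a score, a whole number whose scale is not given in the sources used here. The stated minimum score of 5 does not hold in the deposited lists, whose lowest scores are 0 and 1. The lists also hold more peaks than the study reports for either construct. Whether peaks seen in negative controls had been dropped from the deposited lists is therefore not known. The study's methods give a target sequencing depth, but the depth reached and whether the samples were pooled before peak calling are not given in the sources used here. With 1 list per construct there is no replicate error.

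Sequence was read from GRCh37, and annotation was GENCODE release 44 mapped to it; 0 peaks ended beyond a chromosome. Positions are 1-based. Software was Python 3.11.15 with pysam 0.24.0, pandas 2.3.3, scipy 1.17.1, matplotlib 3.10.9 and numpy 2.4.6. Patterns were searched on both strands within 100 bp of each midpoint, and flanking windows lay 2 kb to either side outside every peak of both lists. Fisher's exact test, two-sided, was used for shares, with Benjamini-Hochberg adjustment within each family (54 pattern, 6 location and 48 chromosome tests) and a threshold of 0.05. Permutation tests of median scores and distances had been planned and are not reported, because the criteria used these values. For an odds ratio with a count of 0, 0.5 was added to each cell. Intervals are 95% Wilson intervals and cover counting error only. The scripts were tested on simulated data. Peaks are not replicates.

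Named in the text are the 10 highest scores of each list, sites within 5 kb of MYOF, SRPX2, CRYAB, SPARC and CSF1, genes with most sites, the 3 sites with most AP-1 patterns and genes of the 10 lists with a site in the body. The sites, patterns, gene lists and this rule were chosen with earlier results of these data known. Single loci that meet this rule and are not named are not reported here.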

Additional observations from a re-analysis of the deposited data

How the results depend on the processing

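No paired analysis was possible because the deposited lists (1 per construct) hold no values of single replicates, and for the same reason no replicate could be left out. Under 17 alternatives, 13 of them planned and 4 chosen after seeing the data (windows of 500 bp, partners held to the GC and distance criteria, scores of 10 to 19, and no sites with 5 or more AP-1 patterns), 277 values were recomputed. The odds ratio of AP-1 against the flanks (6.25 to 13) and against i∆HSA-only peaks (1.76 to 3.93) kept its direction and passed under every alternative run, as did the intronic and intergenic shares against i∆HSA-only peaks. Where another value changed, the cause was not tested. The depth reached is unknown, so a peak missing from a list may lie below what its depth could show.

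The number of sites was 1634 with a score minimum of 5 and 267 with one of 20. The AP-1 odds ratio against iBRG1-only peaks, 0.998, turned to the other side of 1 with windows of 50 bp (1.02) or 500 bp (1.16) on each side, the centre of the overlap (1.22), a score minimum of 5 (1.28) or 20 (1.46), a reciprocal overlap of 50% (1.05), windows of 35 to 50% GC (1.14) and starts of protein-coding transcripts only (1.002), and passed with the score minimum of 5. The TEAD odds ratio against iBRG1-only peaks turned to 1.04 with windows of 50 bp and 1.02 with 500 bp. Against i∆HSA-only peaks the TEAD call was lost with windows of 50 bp (1.37), a score minimum of 20 (2.33), list-only peaks that may overlap weak peaks (1.61), windows of 35 to 50% GC (1.49), partners held to the GC and distance criteria (1.90) and scores of 10 to 19 (1.35), and against the flanks with a score minimum of 20 (2.52) and scores of 10 to 19 (2.10).

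Patterns that passed against i∆HSA-only peaks numbered 3 with windows of 50 bp, 10 with 250 bp, 12 with 500 bp, 3 with a score minimum of 20, 3 with list-only peaks that may overlap weak peaks, 2 with windows of 35 to 50% GC and 2 with scores of 10 to 19. Against the flanks they numbered 6 with windows of 250 bp, 9 with 500 bp, 1 with a score minimum of 20 and 1 with scores of 10 to 19, and against iBRG1-only peaks 1 with the centre of the overlap and 1 with a score minimum of 5. The AP-1 difference in i∆HSA scores was 6.5 with windows of 50 bp, and the TEAD difference -0.5 with 250 bp. The exon odds ratio against i∆HSA-only peaks was 0.971 with a score minimum of 5 and 0.534 with 20.

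The median distance to coding starts minus that of iBRG1-only peaks, -5454 bp in the report's setting, was -3657 bp with a score minimum of 5 and -7659 bp at 3 kb from every start, and 150 bp with a score minimum of 20. Minus that of i∆HSA-only peaks it was 3394 bp with a score minimum of 5, -3672 bp with 20 and -302 bp at 3 kb. With a score minimum of 20, 0 chromosomes passed against iBRG1-only peaks by Fisher's exact test, and the odds ratio of X was 0.585. Within 10 kb instead of 50 kb of a site lay 548 protein-coding genes. Among the values of single other patterns, chromosomes and gene lists, 61 kept their direction and call or their count within 1.5 times, 22 lost their call, 4 counts moved further and 1, that of X, reversed.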

Other observations

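Without naming a factor beforehand, 5524 sequences of 7 bases that occurred in at least 20 windows were ranked by how much more often they were present at the sites than in the flanks. ATGAGTC came first, present at 9.65% of sites and 1.21% of flanks, and the AP-1 heptamer TGACTCA came second. All of the first 5 share a run of at least 5 bases with TGACTCA on one strand or the other. The TEAD heptamer ranked 52. The heptamers overlap each other and were ranked on the same windows, so the order is a description.

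The bases beside the 1013 AP-1 patterns in the overlaps, read along TGACTCA, were unevenly used. The base before it was A at 36.9% and T at 10.3%, and the base after it was T at 37.6% and A at 9.97%. The most frequent form was ATGACTCAT, at 139 of 1013. Of the 1013 patterns, 96 lay in the 6 sites with 5 or more AP-1 patterns, and the bases were not counted without those sites.

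Other factor families gave low or similar shares at the sites and in the flanks. The pattern CAAGGTCA of NR5A factors, to which the adrenal regulator SF-1 belongs, was present at 7 of 808 sites, 0.866%, and at 1.14% of flanks. The GATA pattern AGATAAG was present at 2.85% of sites and 2.78% of flanks. The CRE pattern TGACGTCA, which differs from AP-1 by 1 added base, was present at 0 of 808, with an interval that reached 0.473%. RUNX (TGTGGTT) was present at 3.34% of sites and 3.78% of flanks, and ETS (CCGGAAG) at 0.248% and 0.356%. Over all iBRG1 peaks the shares were 1.17% for NR5A, 2.93% for GATA, 0.116% for CRE, 3.77% for RUNX and 0.735% for ETS. None of these 5 passed in any of the 3 contrasts.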
